A study of Drosophila melanogaster with 3 samples.

Results

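The Rab genes of Drosophila encode small GTPases that mark the membranes of the secretory and endocytic pathways. They were examined here for binding of CG11504, a protein tagged at its C terminus with green fluorescent protein (GFP), in chromatin immunoprecipitation followed by sequencing (ChIP-seq). Members were chosen by symbol: protein-coding genes whose name starts with Rab and a digit, or with RabX and a digit. The rule found 36 of 13945 protein-coding genes. Of these, 33 encode Rab GTPases and 3 encode regulators of one of them, namely Rab3-GEF, Rab3-GAP and Rab3GAP1. The regulators are counted as members because the rule takes them, and the main counts are also given for the 33 GTPases.

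The samples were whole Drosophila melanogaster embryos aged 0 to 18 h, both sexes pooled, from a stably transgenic line carrying the CG11504-GFP fusion, and the antibody recognised GFP. There is 1 group of 3 biological replicates, all with the same transgene, and no second genotype, stage or tissue, so no comparison between conditions exists. Chromatin came from all cells of the embryo together, so a peak shared by many cells and a stronger peak in few cells cannot be told apart. No library without the tag was analysed here. The deposited lists hold 30000 peaks for each replicate, 30000 for the replicates pooled, and 10650 for the list that passed a threshold on the irreproducible discovery rate (IDR), which ranks peaks by how well they repeat. Read depth is unknown. Because peaks carry a signal value on an unstated scale, strength is given as the rank within a list, 1 being the strongest.

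A Rab protein acts as a switch: an exchange factor (GEF) loads it with GTP, in which state it recruits effectors such as tethers and motors, and an activating protein (GAP) ends the cycle by speeding GTP hydrolysis. A lipid anchor added by Rab geranylgeranyl transferase holds the protein on the membrane, and Gdi extracts it again. Each organelle carries its own set, with Rab1 on transport from the endoplasmic reticulum to the Golgi, Rab5 on early endosomes, Rab7 on late endosomes and lysosomes, Rab11 on recycling endosomes and Rab3 on synaptic vesicles.

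IDR summits were found at the start sites of 9 of the 36 members, and 16 summits in all lay at or inside 11 members. The sequences under the strongest of them and under 4 weaker promoter summits are shown first, because the results below turn on these sites. Each is the dm6 sequence around a summit, read in the direction of the gene and trimmed to bases outside annotated exons, with words from a list of 7 promoter and transcription factor words in capitals. The intronic site of Rab5 (chr2L:2363703-2363803, minus strand), the intronic sites of Rab11 (chr3R:21113193-21113293, plus strand) and Rab14 (chr2L:14355697-14355797, plus strand) and the promoter site of Rab3GAP1 (chr2L:1611240-1611340, minus strand) were the 4 strongest. In Rab5 and Rab3GAP1 the capitals mark the TATA word TATAAA on either strand, and in Rab3GAP1 also the homeodomain word TAATTA.
Rab5 intron: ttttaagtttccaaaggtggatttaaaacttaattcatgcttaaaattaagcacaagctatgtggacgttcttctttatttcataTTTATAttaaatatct
Rab11 intron: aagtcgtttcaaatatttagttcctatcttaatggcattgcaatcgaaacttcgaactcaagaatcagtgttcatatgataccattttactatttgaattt
Rab14 intron: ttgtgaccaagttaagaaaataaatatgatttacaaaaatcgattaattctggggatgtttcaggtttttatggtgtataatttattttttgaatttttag
Rab3GAP1 promoter: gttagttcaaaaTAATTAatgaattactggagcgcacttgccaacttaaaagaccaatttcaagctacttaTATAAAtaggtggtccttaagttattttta

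Weaker promoter summits differed in the words they held. Those at starts of Rab26 (IDR rank 4974) and Rab23 (IDR rank 7126) held none of the words and are not shown. Shown are those upstream of Rab11 (chr3R:21111176-21111276, plus strand), with the word TAATTA, Rab40 (chrX:12463180-12463280, minus strand), with TATAAA, Rab35 (chrX:20159960-20160060, minus strand), with the DNA replication-related element (DRE) TATCGATA, and Rab14 (chr2L:14355086-14355144, plus strand), with the M1BP word GGTCACAC of a promoter-binding zinc finger protein, here on the reverse strand. The last sequence, upstream of Rab1 (chr3R:21269061-21269136, minus strand), surrounds a summit that was present in 2 replicates and in neither the pooled nor the IDR list, and holds none of the words.
Rab11 promoter: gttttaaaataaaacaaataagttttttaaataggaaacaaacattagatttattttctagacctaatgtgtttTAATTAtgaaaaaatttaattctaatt
Rab40 promoter: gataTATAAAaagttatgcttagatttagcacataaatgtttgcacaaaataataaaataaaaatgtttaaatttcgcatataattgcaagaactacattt
Rab35 promoter: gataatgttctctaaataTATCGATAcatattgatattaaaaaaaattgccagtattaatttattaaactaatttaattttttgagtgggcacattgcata
Rab14 promoter: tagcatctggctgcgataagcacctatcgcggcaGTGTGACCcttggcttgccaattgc
Rab1 promoter: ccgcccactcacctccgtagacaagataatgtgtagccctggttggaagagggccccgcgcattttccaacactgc

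A gene counts as bound where the IDR list has a summit no more than 500 bp from any annotated start of its transcripts. By this rule 9 of 36 members were bound (25%, 95% exact binomial interval 12.1 to 42.2, covering counting error over genes only), against 22.9% of all protein-coding genes. Among the GTPases proper the count was 8 of 33 (24.2%). The share of Rab genes was near the background, so the count by itself is no result about the family. In the 10650 strongest peaks of replicates 1, 2 and 3, respectively 10, 9 and 11 members were bound, beside 25%, 23.2% and 25.1% of protein-coding genes. Of the GTPases, 9, 8 and 10 were bound there. Over the replicates the members' share is 27.8% ± 2.78 (SD, n = 3) against 24.5% ± 1.1 (SD, n = 3) of protein-coding genes. The nearest IDR summit lay at a median of 5185 bp from a start site in the members and 5684 bp in all protein-coding genes.

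**Figure D1:**
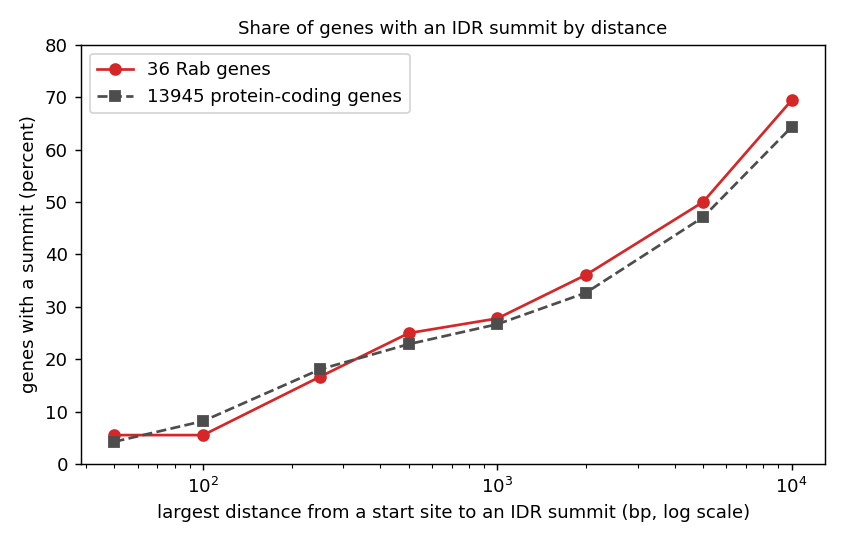
Percent of genes (vertical axis) with an IDR summit no farther from a start site than the distance on the horizontal axis (bp, log scale), for the 36 Rab genes (circles) and all 13945 protein-coding genes (squares). The curves stay close together, with 25.0% and 22.9% at 500 bp and 69.4% and 64.3% at 10000 bp.

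The bound members were Rab5, Rab11, Rab14, Rab35, Rab26, Rab39, Rab23, Rab40 and the regulator Rab3GAP1. By the classes of membrane traffic, 4 of the 8 endocytic and recycling genes were bound and none of the 7 secretory genes Rab1, Rab2, Rab6, Rab8, Rab10, Rab18 and Rab30 (a count of 0 allows up to 3 of 7, or 42.9%). Of the 6 genes of synaptic vesicles, secretory granules and lysosome-related organelles 2 were bound, and of the 12 less studied and insect-specific genes also 2. The share over all protein-coding genes, 22.9%, lies within what 0 of 7 allows. These classes are small and were not tested against each other, so the counts show no difference between pathways.

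Rab5 drives the fusion of early endosomes and has 6 annotated start sites. Its strongest summit (2L, peak 2363532 to 2364042) had rank 690 in the IDR list and ranks 826, 649 and 663 in replicates 1, 2 and 3. It lay in an intron, 249 bp upstream of an internal start site and 1520 bp downstream of the first one. A second, weaker summit (2L, peak 2365145 to 2365372) sat in an exon outside the coding sequence, 12 bp downstream of a start site, with IDR rank 5789 and ranks 4331, 6588 and 7862 in the replicates. The stronger Rab5 site kept nearly the same rank in all 3 replicates, while the weaker one ranged more widely. A start site of Axud1 lies within 500 bp of the weaker summit, so that peak belongs to either gene.

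Rab11 directs recycling endosomes and, in fly embryos, membrane delivery during the formation of cells. It carried 3 IDR summits, the most of any member. The promoter summit (3R, peak 21111034 to 21111264) lay 182 bp upstream of the single start site, with IDR rank 4400 and ranks 4696, 4553 and 5180 in replicates 1, 2 and 3. No other gene starts within 500 bp of it. The 2 intronic summits lay 1146 bp and 1835 bp downstream of the start. The first (3R, peak 21112468 to 21112821) had IDR rank 4248 and ranks 4301, 4490 and 4733 in the replicates, close to those of the promoter. The second (3R, peak 21113012 to 21113526) was far stronger, with IDR rank 830 and ranks 951 and 610 in replicates 2 and 3. Replicate 1 had no summit there: its nearest was 682 bp away. Of the 1000 strongest IDR summits, this was 1 of only 2 with no replicate 1 summit within 500 bp.

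Rab14 works between the Golgi and endosomes and showed the same arrangement of a weak promoter summit and a stronger one inside the gene. The intronic summit (2L, peak 14355565 to 14356007) lay 602 bp downstream of a start site, just beyond the window that counts as bound, with IDR rank 1373 and ranks 1704, 1390 and 1134 in replicates 1, 2 and 3. It also falls in an intron of the non-coding gene lncRNA:CR44851. At the promoter (2L, peak 14355037 to 14355201) the summit lay 27 bp upstream of the start, had IDR rank 8485 and ranks 6891, 11650 and 8099, and was shared with the start of l(2)34Fd on the other strand. Since its rank in replicate 2 was beyond the 10650 strongest, Rab14 was no longer bound when replicate 1 or replicate 3 was left out.

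Rab35, a GTPase of rapid recycling, had a promoter summit 138 bp upstream of its start (X, peak 20159785 to 20160234) with IDR rank 7779 and ranks 7246, 10534 and 7907 in the replicates, and no other gene starts there. All 3 replicates placed it in the weaker part of their 10650 strongest peaks. Rab9, which acts between late endosomes and the Golgi, was not bound, but 2 IDR summits lay in its intron, 904 bp and 1883 bp from its start (2L, peaks 19433253 to 19433702 and 19434331 to 19434598). The nearer had IDR rank 9532 and ranks 9235, 12044 and 10163, and the farther IDR rank 5518 and ranks 7518, 6354 and 4304. With a window of 1000 bp Rab9 would be counted as bound. Rab4, Rab7 and Rab21, the remaining endocytic genes, had no IDR summit within 500 bp of a start or inside the gene. For Rab4, a GTPase of rapid recycling, the nearest IDR summit was a strong one with rank 358, at 4830 bp, and for Rab7 the distance was 13232 bp.

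**Figure D2:**
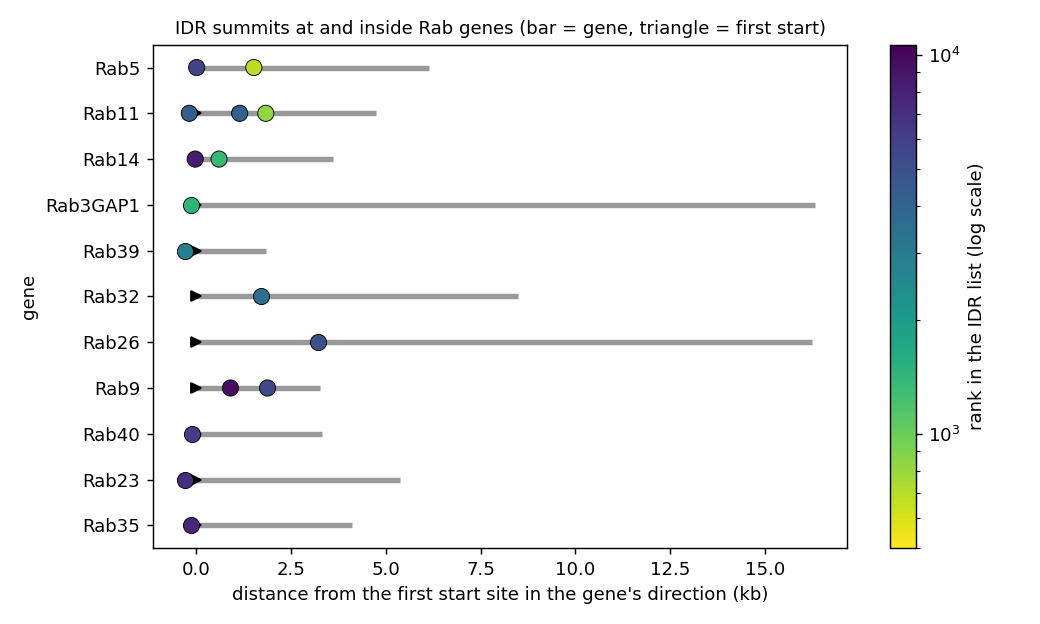
The 16 IDR summits (circles, coloured by rank in the IDR list on a log scale) at or inside 11 Rab genes, by distance in kb from the first start site in the gene's direction (horizontal axis). Grey bars are gene bodies and triangles first start sites, partly covered by summits; the strongest summits of Rab5, Rab11 and Rab14 lie inside the gene, at 1520, 1835 and 602 bp.

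Among genes of regulated secretion, Rab39 had the strongest promoter summit (X, peak 7734382 to 7734836), 305 bp upstream of its start, with IDR rank 2888 and ranks 2761, 3397 and 2719 in replicates 1, 2 and 3. The summit falls in an exon of the neighbouring gene Pdp, outside its coding sequence, and Pdp also starts within 500 bp. Weaker summits outside the IDR list lay nearer the Rab39 start. They were at 88, 140 and 77 bp in replicates 1, 2 and 3 (ranks 14149, 12019 and 15695) and at 98 bp in the pooled list (rank 11100). Rab26, a GTPase of secretory vesicles in mammals, is one of the longest members at 16254 bp, with 3 start sites. Its summit (3L, peak 21321834 to 21322164) lay in an intron 383 bp upstream of an internal start, 3224 bp from the first one, with IDR rank 4974 and ranks 5780, 4939 and 5275. If only the outermost start of each gene is used, Rab26 is not bound. Rab32, needed for pigment granules of the fly eye and also known as lightoid, had no IDR summit at a start but 1 in an intron (2R, peak 9184466 to 9184775), 1713 bp from the nearest start, with IDR rank 3609 and ranks 4085, 3226 and 4122.

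Rab23, which acts in planar cell polarity in flies and in Hedgehog signalling in mice, was bound 287 bp upstream of its start (3R, peak 5685496 to 5685945) with IDR rank 7126 and ranks 6020, 9502 and 7708. The same summit is within 500 bp of the start of plx, the gene of a protein with the domain found in Rab-activating proteins. Here 1 peak therefore sits between a Rab gene and a gene of the Rab regulators. Rab40, whose vertebrate relatives are subunits of ubiquitin ligases, was bound 118 bp upstream of a start (X, peak 12463029 to 12463300) with IDR rank 6101 and ranks 5065, 6680 and 8728, shared with CG42258. Rab3GAP1, whose protein ends the active state of Rab3, was the only one of the 3 regulators that was bound, 133 bp upstream of its start (2L, peak 1611084 to 1611520). Its IDR rank was 1452 and its ranks were 1079, 1791 and 1825, and CG14352 starts within 500 bp as well.

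**Figure D3:**
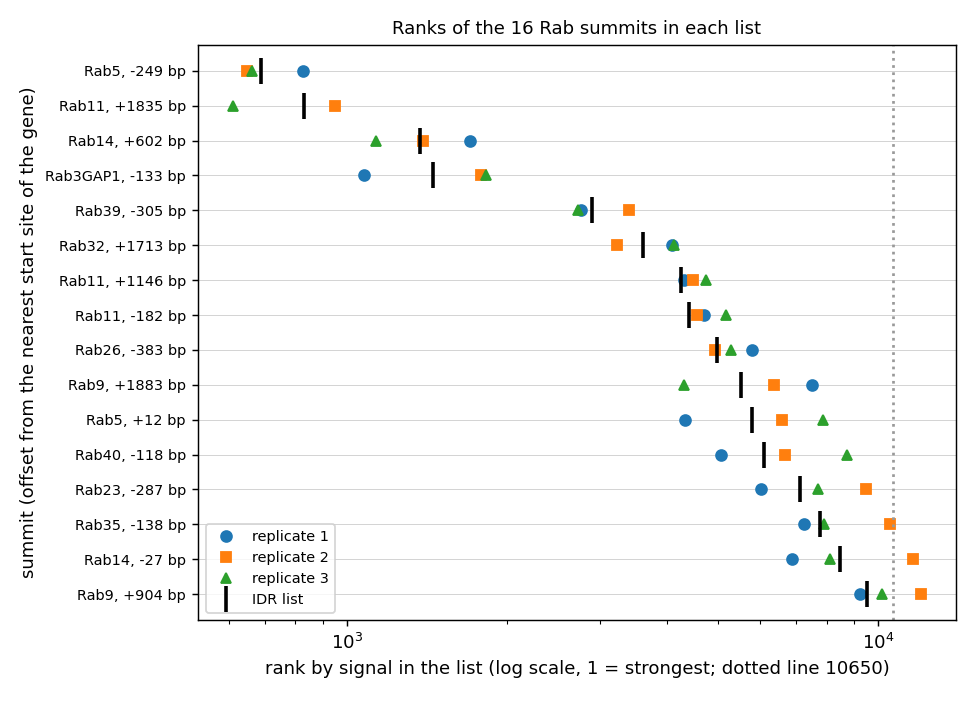
Rank by signal (horizontal axis, log scale, 1 being the strongest) of the 16 Rab summits in the IDR list (bars) and, where a summit lay within 100 bp, in replicates 1, 2 and 3 (circles, squares, triangles), each row labelled by gene and offset in bp from its nearest start. Ranks run from 690 to 9532 in the IDR list, the Rab11 summit at 1835 bp has no circle, and 2 summits pass the dotted line at 10650 in replicate 2 (11650 and 12044).

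Of the 16 summits, 15 had a partner within 100 bp in the whole lists of all 3 replicates (93.8%, against 91.9% of all IDR summits). The exception was the strong intronic Rab11 site. A partner among the 10650 strongest peaks of all 3 was found for 13 (81.2%, against 72.2% of all IDR summits). The IDR list was made from these replicates, so the matches describe the list and are no separate test. Summits within 500 bp of a member start, the intronic Rab5 site among them, ranged from rank 690 to rank 8485. The median IDR signal was 552 over these 10 summits and 683 over 3478 IDR summits at starts of any gene. Of the 10, 3 were above 683, at Rab5, Rab3GAP1 and Rab39. The 4 summits within the first 2000 ranks were those of Rab5, Rab11 and Rab14 inside the genes and of Rab3GAP1. For all 16 the deposited −log10 q-value was 4.3, the ceiling of the list, so it does not order them.

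Most promoter summits lay upstream of the start, 9 of 10, the exception being the Rab5 summit 12 bp downstream. Over all 3478 IDR summits at starts the median offset was -118 bp, also upstream, but measured from the nearest start of any gene. Member offsets were measured from the member's own nearest start, and the upstream share over all IDR summits at starts was not computed. At 6 of the 10, another gene started within 500 bp, a share that was not computed over all IDR summits at starts. Over the family, 7 of 19 members with an oppositely transcribed protein-coding gene starting within 1000 bp upstream were bound (36.8%) and 2 of 17 without one (11.8%). All protein-coding genes showed shares of 31.1% and 18.3% for the same classes, so the members followed the order seen in the genome. Gene length ran in parallel too. Bound were 1 of 15 members up to 2000 bp long (6.67%, against 14.1% of all protein-coding genes of that length), 4 of 14 between 2000 and 5000 bp (28.6%, against 22.9%) and 4 of 7 longer ones (57.1%, against 39.5%). Summits inside the gene were found in 6 of 36 members (16.7%, against 16.3% of all protein-coding genes), and 4 members (11.1%, against 12.2%) had one over 500 bp from all their starts, namely Rab11, Rab14, Rab9 and Rab32.

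The sequence under the summits was poor in G and C. Within 50 bp of the summit the median GC content was 28.7% over the 16 summits and 27.2% over the 10 at starts, beside 33.7% over all IDR summits at starts and 30.7% over the other IDR summits. It ranged from 15.8% at the Rab11 promoter to 53.5% at the Rab14 promoter, which stood well above the rest. The DRE word TATCGATA was found at 1 of the 10 start summits, Rab35 (2.3% of all IDR start summits), and GGTCACAC at 1, Rab14 (2.3%). TATAAA was found at 3 (22.3%), TAATTA at 2 (9.86%), the promoter word GTATTT, known as Ohler 6, at 1 (15.7%), and GAGAG and CAGCTG, words of GAGA factor and of E-box proteins, at none (9.95% and 4.63%). In windows of the same length at 19239 start sites of protein-coding genes, centred 118 bp upstream, the shares were 1.4% for TATCGATA, 0.93% for GGTCACAC, 17.4% for TATAAA, 8.86% for TAATTA, 13% for GTATTT, 15.8% for GAGAG and 4.97% for CAGCTG. Both strands were searched, and a match of letters does not show a bound factor.

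Absence from the IDR list did not always mean absence from the replicates. Of the 27 members that were not bound, 19 had no summit within 500 bp of a start in any list and 8 had one in at least 1 replicate. Together with the bound genes, 17 of 36 members had a summit in at least 1 replicate (47.2%, against 39.8% of all protein-coding genes), and 12 had one in the pooled list (33.3%, against 30.4%). For the 33 GTPases alone these shares were 45.5% and 30.3%. In the whole lists of all 3 replicates it was 10 members (27.8%, against 26.8%) and 8 of the 33 GTPases (24.2%), so both shares were near that of all protein-coding genes. In all, 11 members had an IDR summit at a start or inside the gene (30.6%, against 27.8%). Rab1, the GTPase of transport from the endoplasmic reticulum to the Golgi, had a summit 47 bp upstream of its start with rank 10124 in replicate 2 and another 26 bp upstream with rank 7620 in replicate 3, while replicate 1 had none closer than 14605 bp. Rab21, which acts in endocytosis, had one 15 bp downstream of a start with rank 6506 in replicate 1 and one 44 bp downstream with rank 9278 in replicate 3, shared with Coa7, and none in replicate 2 closer than 2354 bp. Both genes were thus among the 10650 strongest peaks of 2 replicates, yet the pooled list of 30000 peaks had its nearest summit 14635 bp from the start of Rab1 and 2354 bp from that of Rab21. Counting a gene as bound when 2 or more replicates had a summit among their 10650 strongest peaks gave 11 of 36 members (30.6%, against 24.3% of all protein-coding genes), with Rab1 and Rab21 added and none lost. Of all protein-coding genes, 1.96% met that rule with no pooled summit within 500 bp and 2.32% with no IDR summit there, beside the same 2 of 36 members in each case. In replicates 1, 2 and 3, respectively 4.62%, 3.55% and 5.01% of the 10650 strongest peaks had no pooled summit within 500 bp.

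The other 6 had only weak summits. Rab3-GEF, the exchange factor of Rab3, was the only one with a summit in all 3 replicates, at ranks 10976, 13871 and 18281, and in the pooled list at rank 12435. Rab32 had summits near its first start at ranks 14343 and 18529 in replicates 2 and 3 and at rank 19284 in the pooled list. Rab19 had them at ranks 16766 and 15498 in replicates 2 and 3, and Rab3, RabX6 and RabX5 in replicate 3 alone among the replicates, at ranks 13926, 12056 and 26157. The RabX6 summit is shared with the start of CG32483. RabX5 also had one in the pooled list, at rank 29088 near its end. Replicate 3 thus had a summit at each of these 6 genes, and replicate 1 at 1 of them.

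**Figure D4:**
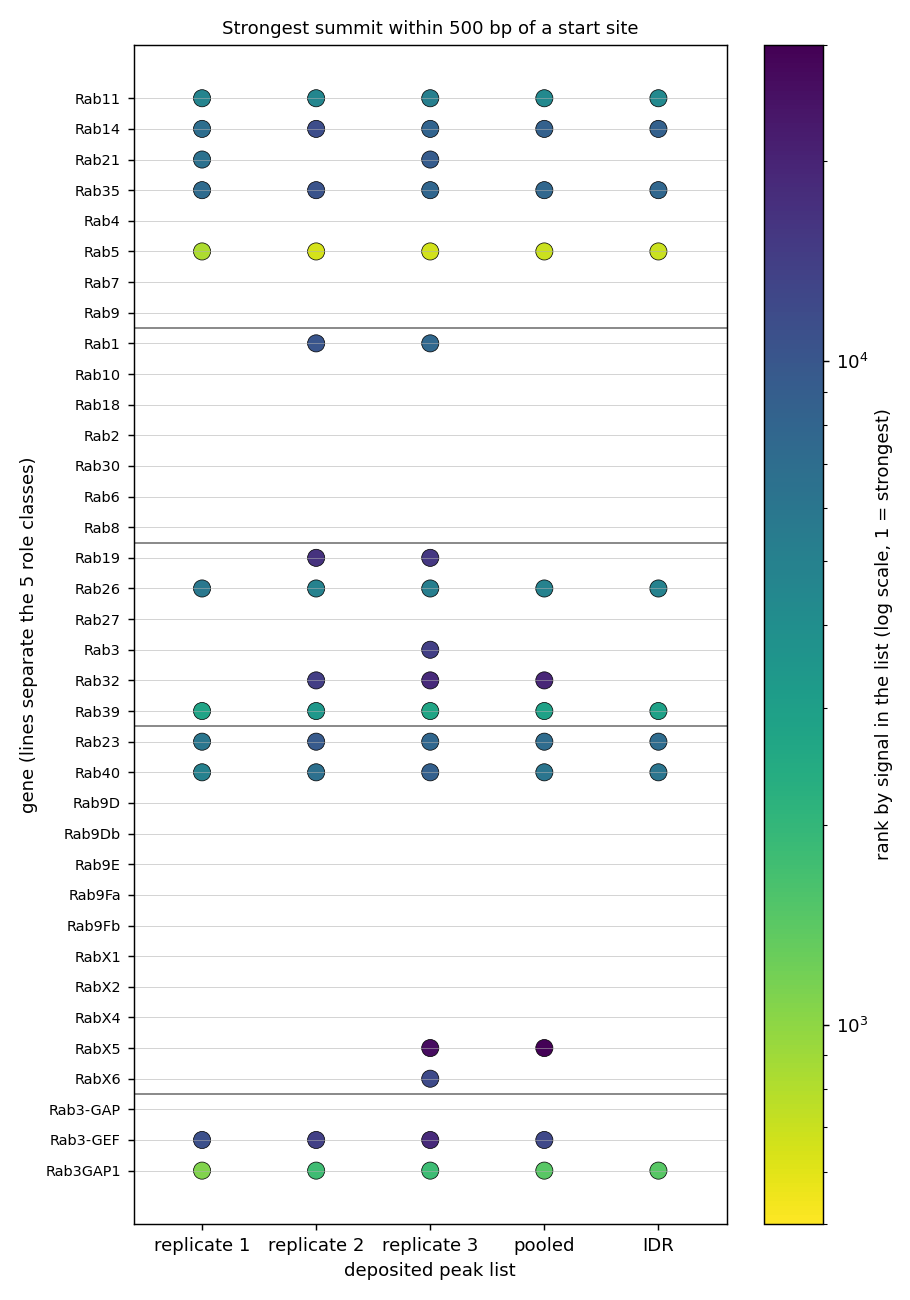
Strongest summit within 500 bp of a start site of each of the 36 members (rows, in 5 role classes separated by lines) in each deposited list (columns), coloured by rank in that list on a log scale; an empty place means no summit. The 9 members with an IDR summit have one in all 5 columns, Rab1 and Rab21 have one in 2 replicates and in neither the pooled nor the IDR column, and 19 rows are empty.

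The 5 genes Rab9D, Rab9Db, Rab9E, Rab9Fa and Rab9Fb, short genes on the X chromosome, had no summit within 500 bp of a start in any list (a count of 0 allows up to 3 of 5, or 60%). The nearest IDR summits were 1426 bp from Rab9D, 2394 bp from Rab9Db, 14221 bp from Rab9Fa, 15004 bp from Rab9Fb and 32809 bp from Rab9E. The coding sequences of Rab9D, Rab9Db, Rab9E and Rab9Fa were 98.1% to 99.2% identical to each other, and that of Rab9Fb was 72.0% to 72.7% identical to them. Identity to Rab9 itself was only 49.6% to 50.2%, so the name does not mark a close copy of that gene. Identity was measured over the coding sequence only, and no source used here says how the authors treated reads that match more than 1 place, so the lack of peaks at the first 4 is given as uncertain. RabX2, 86.0% to 86.5% identical to the same 4, had its nearest IDR summit 19692 bp away. The distances were 1370 bp for RabX5, 5586 bp for RabX6, 14270 bp for RabX4 and 24458 bp for RabX1. Among the genes with weak replicate summits they were 2049 bp for Rab3, 3740 bp for Rab3-GEF and 8412 bp for Rab19.

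Secretory members apart from Rab1 had no summit near a start in any list. The nearest IDR summit was 5540 bp from Rab6 of the Golgi, 6038 bp from Rab10, 6270 bp from Rab18 of lipid droplets, 6823 bp from Rab30, 18707 bp from Rab2 and 32215 bp from Rab8, a GTPase of exocytosis. Rab27, a GTPase of secretory granules, was 6341 bp and Rab3-GAP 11521 bp from theirs. Of all 36 members, 11 were over 10000 bp from the nearest IDR summit (30.6%, against 35.7% of all protein-coding genes).

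The genes that load, unload and read the Rab switch were counted from a list of 47 genes that are no members themselves. Of these 17 were bound (36.2%, against 22.9% of all protein-coding genes), a difference that was not tested. The list was not matched for gene length. Over all protein-coding genes, 14.1% of those up to 2000 bp and 39.5% of those over 5000 bp were bound. Exchange factors were bound at 3 of 9, with spri, which activates Rab5, at IDR rank 693, Mon1 at rank 800 and Ccz1 at rank 4931. Mon1 and Ccz1 together form the exchange factor of Rab7, whose own gene had no summit near a start. Activating proteins were bound at 4 of 10, led by sky, which acts on Rab35 at synapses (rank 366), RN-tre (rank 568), Evi5 (rank 3964) and plx (rank 7126, the peak shared with Rab23).

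Of the genes for the lipid anchor and its handling, 2 of 5 were bound, RabGGTb, the catalytic subunit of the prenylating enzyme, at rank 5668 and Gdi, which extracts Rab proteins from membranes, at rank 8702. Effectors and tethers were bound at 8 of 23. The 5 strongest were Vps33B of a vesicle tether (rank 531), Rbsn-5, an effector of Rab5 (rank 901), btsz (rank 2709), nuf, an effector of Rab11 (rank 4216), and Vps8 of the early endosome tether (rank 6501). Among the 4 strongest, sky had ranks 395, 295 and 447 in replicates 1, 2 and 3, Vps33B 524, 538 and 549, and spri 683, 696 and 776. RN-tre varied most, with ranks 330, 749 and 859. In all 3 replicates sky and Vps33B stood above the intronic Rab5 site, the strongest Rab site of the IDR list. RN-tre and spri stood above that site in replicate 1 and below it in replicates 2 and 3. In replicate 3 the intronic Rab11 site, at rank 610, was stronger than that of Rab5, at rank 663. RabGGTa, named here after its values were seen, was not bound although replicates 1, 2 and 3 had a summit near its start at ranks 3542, 2496 and 2474.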

How the data were processed

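Members, gene classes and lists were chosen with earlier results of these data known. Each peak list the authors deposited, in dm6, gives a signal value, a −log10 q-value and a summit per peak. Replicate and pooled lists were made from dm6 alignments with 1 control alignment, per the text files deposited with them, and the IDR list comes from those lists, so the lists are not independent. No source used here names the aligner, the peak caller or the read filters. Chromatin was sonicated to 200 to 800 bp, per the labels. Depth is unknown.

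Genes and start sites came from Ensembl release 115 on 6 chromosome arms, without transposable elements, and sequence from the NCBI RefSeq genome of that assembly. All 36 members had the same start and end in RefSeq, and 0 peaks ran past an arm's end. A summit was the peak start plus its offset, counted from 1, and replicate summits within 100 bp were matched. Strength was compared by rank within a list. The replicates are labelled as biological, form 1 group and allow no test between conditions. Of 75 pathway symbols 4 were matched by synonym, 4 were members or repeats and 1 was not matched. Every member is named, with genes that share its summit and up to 5 bound genes per list in order of rank. In the list of other small GTPases some genes are not reported here, so those named are not its first by rank. Identity came from global alignment of coding sequences. Python 3.11.15, numpy 2.4.6, pandas 2.3.3, scipy 1.17.1, biopython 1.88 and matplotlib 3.10.9 were used, and the calling of bound genes was checked on planted peaks.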

Additional observations from a re-analysis of the deposited data

How the results depend on the processing

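The share of bound members is given here with that of all protein-coding genes under the same setting, beside 25.0% and 22.9% as reported. Within 250 bp of a start it was 16.7% and 18.1% (Rab23, Rab26 and Rab39 dropped out), and within 1000 bp 27.8% and 26.7% (Rab9 came in). With IDR peaks above the median signal it was 13.9% and 15.8%, with the 1000 strongest IDR peaks 2.78% and 4.42% (Rab5 alone), and with the whole pooled list 33.3% and 30.4% (Rab3-GEF, Rab32 and RabX5 came in). With any base of a peak within 500 bp the shares were 25.0% and 24.8%, and with the outermost start of each gene 22.2% and 20.7% (Rab26 dropped out). The strongest peaks of replicate 1 gave 27.8% and 25.0% and those of replicate 3 30.6% and 25.1%. A summit in 2 or more replicates, a setting chosen after seeing the data, gave 30.6% and 24.3%. Without 1 replicate the shares ranged from 22.2% to 25.0% of members and from 19.4% to 20.0% of all protein-coding genes, Rab14 dropping out without replicate 1 or replicate 3. The share of the 47 regulators and effectors ranged from 27.7% to 36.2% in the same way. Peaks were not called anew for these settings. Leaving out a replicate could only drop genes from the IDR list made with all 3. Rab1, with summits among the strongest peaks of replicates 2 and 3, was thus not added without replicate 1. That no member came in and that the share of all protein-coding genes fell below 22.9% are therefore no results. Members with a summit inside the gene were 13.9% above the median signal (all protein-coding genes 11.5%), 5.56% in the 1000 strongest IDR peaks (3.44%), 25.0% in the pooled list (22.0%) and 19.4% in the strongest peaks of replicates 1, 2 and 3 (16.4%, 16.6% and 17.0%). Matching summits within 50 bp left 93.3% of replicate peaks matched to the Rab promoter summits. The causes were not tested. No paired analysis was possible because there is 1 group of samples. Without read counts or an untagged library, peaks common to GFP immunoprecipitations cannot be told apart from those of CG11504.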

Other observations

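Small GTPases of other families were counted from a list of 23 genes, of which 7 were bound (30.4%, against 22.9% of all protein-coding genes). The difference was not tested, and gene length was not matched. Only some of the 7 are named. Arl1, a GTPase of the Golgi, had IDR rank 348, with ranks 321, 365 and 403 in replicates 1, 2 and 3. It stood above every Rab summit of the IDR list, the strongest of which, the intronic Rab5 site near an internal start, had rank 690. Sar1, which starts the budding of vesicles at the endoplasmic reticulum, had rank 2244, Arl8 of lysosomes rank 2726 and Rap1 rank 3777. Rala was weaker, at rank 9498. Arf1, the GTPase of Golgi coats, had a summit near a start in replicate 3 alone, at rank 7510.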
